A study of Mus musculus with 18 samples.

Results

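GFP+ induced cardiomyocyte-like cells (iCMs) labelled as 4 weeks old were compared with the GFP- cells of 4 weeks in which reprogramming had failed. The 3 arrays titled as 4-week iCMs and the 3 titled as 4-week GFP- cells were taken by their labels, which is 6 of the 18 arrays of the series, and all genes were compared. Both groups came from CD1 mice, and the labels describe both groups as fibroblasts put through reprogramming, successful in the iCMs and failed in the GFP- cells. The other groups of 3 arrays are iCMs and GFP- cells at 2 weeks, neonatal cardiomyocytes and neonatal cardiac fibroblasts. RNA was hybridised to Affymetrix mouse Gene 1.0 ST arrays, and each value is a log2 signal of a probe set, so that a difference of 1 is a doubling. The labels name neither the factors used nor the promoter that drives GFP, and they do not say how many animals or cultures stand behind an array. Per the series' design text the 3 arrays of each group are biological replicates, and no separate cultures are named.

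In direct cardiac reprogramming, fibroblasts are given cardiac transcription factors, classically Gata4, Mef2c and Tbx5, and start to express the genes of the contractile apparatus without passing through a stem cell. Success is usually read with a fluorescent reporter driven by a heart muscle gene such as Myh6, and cells that stay dark are sorted apart as failures. Where Myh6 drives GFP, the gene belongs to the sort and its difference between GFP+ and GFP- cells is built in. Heart muscle cells contract when calcium released by Ryr2 frees actin for myosin, and they meet the cost of this largely with fatty acid oxidation in mitochondria.

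Arrays of the same group correlated at r = 0.993 to 0.996 across genes, and an iCM with a GFP- array at 0.932 to 0.940, as a description in which genes are not independent replicates. Array medians in the series ran from 7.32 to 7.44 log2 and array maxima from 13.82 to 13.95. A group mean below 6.16 log2, which is the smallest of the arrays' 25th percentiles, was taken as not above background, and a fold against such a group is given as a lower bound. A gene was called at a Benjamini-Hochberg adjusted p under 0.05 in limma. Of 19912 genes, 6816 (34.2%) were called at 4 weeks, 3421 higher (17.2%) and 3395 lower (17.1%) in iCMs. Counts of list members below are to be read beside these shares of higher and lower genes. Calls that were also at least 2-fold numbered 683 higher (3.43%) and 1019 lower (5.12%), and at least 4-fold 185 higher and 332 lower. These folds are fitted values, and a group below background leaves a lower bound under 2-fold for 27 of the 683 and 34 of the 1019, and under 4-fold for 10 of the 185 and 18 of the 332. The 3 arrays of a group stood wholly above those of the other for 4950 genes in iCMs (24.9%) and wholly below for 4201 (21.1%). The median difference over all genes was 0.05 log2. Where a level is set beside neonatal cells, it is a description with no test.

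The largest rises in iCMs were mostly genes of heart and striated muscle, and the largest falls mostly genes of macrophages and other leukocytes. Enpep, the aminopeptidase that cleaves angiotensin II, rose most, with 11.88, 11.96 and 11.71 log2 in the iCM arrays, against 6.86, 6.66 and 6.78 in the GFP- arrays (difference 5.08 ± 0.21 log2, SE, adjusted p = 1.57e-13). No iCM array of Enpep came within 4 log2 units of a GFP- array. Of the 12 largest rises, 7 encode parts of the sarcomere or of the calcium store: Myh6, Ttn, Casq2, Jph1, Myl7, Myoz2 and Ryr2. The other 4 beside Enpep were Smpx, a small muscle protein, Dmd, dystrophin, Pgam2, the muscle phosphoglycerate mutase, and Ppp1r3c, which brings a phosphatase to glycogen. The 12 largest falls ran from -3.81 log2 for Tlr13 to -3.58 for Casp1, the protease that activates interleukin 1 beta. In between lay Tlr8, Il7r, Stap1, Tlr7, Cd200r1, Ms4a6b, Cd48, Clec4a3, Ms4a4a and Clec4n, most of them known from leukocytes. In bulk RNA, fewer cells of a type and less of its RNA per cell cannot be told apart.

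**Figure D1:**
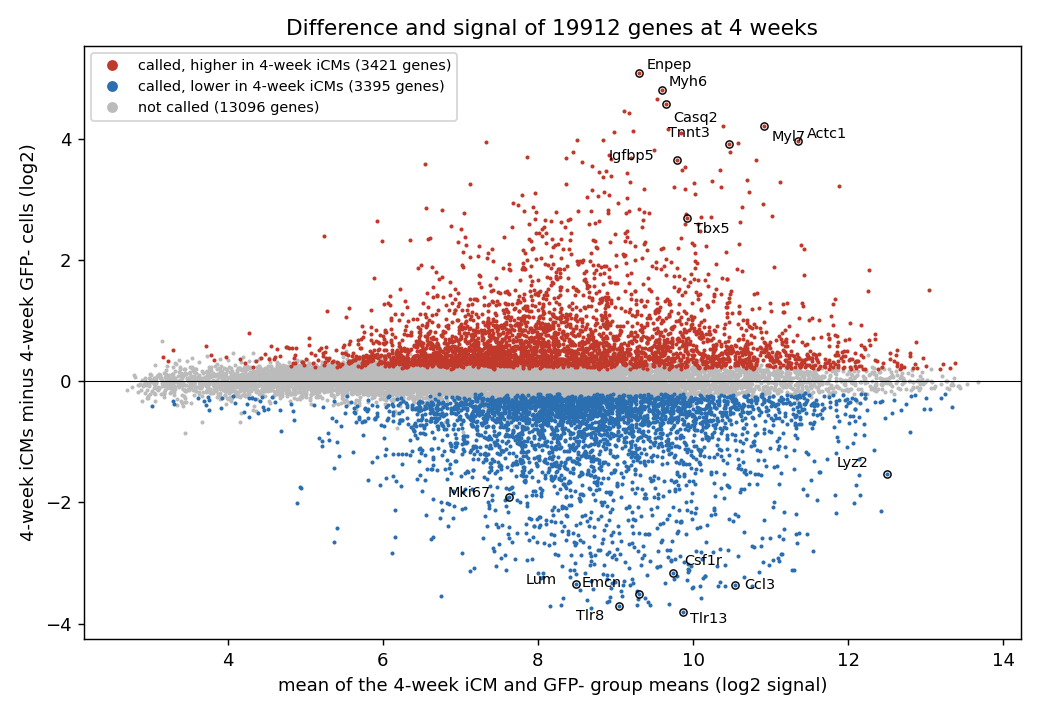
Each point is 1 of 19912 genes, with the mean log2 signal of the 4-week iCM and GFP- groups on the horizontal axis and the iCM minus GFP- difference (log2) on the vertical axis. Red points were called higher (3421), blue points lower (3395) and grey points were not called. Enpep and the muscle gene Myh6 lie at the top and Tlr13 and Tlr8 at the bottom.

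The reprogramming factors of the field were all higher in iCMs, and the values cannot separate the cells' own transcripts from introduced copies where a probe set matches both. Tbx5, a T-box factor of the heart, stood at 11.07, 11.32 and 11.40 log2 in the iCM arrays, against 8.63, 8.38 and 8.72 in the GFP- arrays, a rise of 2.69 ± 0.11 log2 (SE, adjusted p = 1.18e-13). Gata4, a zinc finger factor, stood at 10.78, 10.90 and 10.65 log2 in the iCM arrays, against 9.14, 9.21 and 9.09 in the GFP- arrays (difference 1.63 ± 0.13 log2, adjusted p = 2.24e-09). Mef2c, a factor of muscle differentiation, stood at 11.62, 11.92 and 11.80 log2 in the iCM arrays, against 11.18, 11.17 and 11.15 in the GFP- arrays (difference 0.61 ± 0.13 log2, adjusted p = 0.0007). The 2 groups did not overlap for any of these factors, and the iCM arrays lay above the neonatal cardiomyocyte means of 9.32 ± 0.07 for Tbx5, 9.77 ± 0.01 for Gata4 and 10.24 ± 0.13 for Mef2c (SD, n = 3). The GFP- arrays of Tbx5 also lay above the cardiac fibroblast mean of 6.68 ± 0.08. These 3 of 3 rises stand beside the 17.2% of all genes called higher as a description only. Where these factors were the ones introduced, high levels in iCMs may be built into the experiment.

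Further cardiac transcription regulators rose less evenly: 12 of 25 measured were higher and 2 lower, with a median difference of 0.23 log2 beside 0.05 over all genes. Esrrg, a nuclear receptor of oxidative metabolism, stood at 8.84, 8.95 and 8.56 log2 in the iCM arrays, against 6.70, 6.91 and 6.88 in the GFP- arrays (1.95 ± 0.14 log2, adjusted p = 8.08e-10). Ankrd1, a cofactor that responds to stretch, stood at 13.11, 13.27 and 13.15 log2 in the iCM arrays, against 11.61, 11.16 and 11.27 in the GFP- arrays, and Tbx20 at 11.11, 11.22 and 11.09 against 9.95, 9.94 and 9.43. Prox1 was 1.93-fold higher, with its arrays apart, yet its iCM arrays stayed under 8 log2 beside a cardiomyocyte mean of 10.01 ± 0.13. Tbx3, Smyd1 and Hopx rose by 0.95, 0.92 and 0.74 log2, while Mef2a (-0.48) and Nr2f2 (-0.61) fell. Nkx2-5, a homeobox factor central to the heart, stood at 8.21, 8.15 and 8.24 log2 in the iCM arrays, against 8.01, 7.98 and 8.0 in the GFP- arrays and did not pass the test (difference 0.20 ± 0.11 log2, adjusted p = 0.167). Its probe set separates cardiomyocytes (8.48 ± 0.09) from fibroblasts (8.06 ± 0.05) by little. With array weights Nkx2-5 was called higher (0.23 log2, adjusted p = 0.0251).

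Of the thick filament, titin and M-band genes, 10 of 14 rose in iCMs, none fell, and the median difference was 1.96 log2. Myh6, the alpha-myosin heavy chain, stood at 12.09, 12.02 and 11.89 log2 in the iCM arrays, against 7.22, 7.11 and 7.25 in the GFP- arrays, a 27.9-fold rise (4.80 ± 0.21 log2, adjusted p = 4.42e-13) with the reservation on the sort given above. Ttn, the giant spring protein of the sarcomere, stood at 11.91, 12.01 and 11.64 log2 in the iCM arrays, against 7.25, 7.12 and 7.25 in the GFP- arrays (4.65 ± 0.16 log2, adjusted p = 1.83e-14). All iCM arrays of Myh6 and Ttn lay above all GFP- arrays and below the cardiomyocyte means of 13.07 ± 0.11 and 12.64 ± 0.07. Myl7, the atrial light chain, stood at 12.98, 13.09 and 13.0 log2 in the iCM arrays, against 8.83, 8.73 and 8.89 in the GFP- arrays (4.21 ± 0.16 log2, adjusted p = 8.96e-14), beside a cardiomyocyte mean of 12.95 ± 0.10. Myom1, which crosslinks myosin at the M-band, rose by 3.61 ± 0.22 log2. Myl2, Myl3, Myh7b and Myom3 did not pass the test.

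All 12 thin filament genes rose, by 0.75 to 3.97 log2 with a median of 1.74. Actc1, cardiac alpha-actin, stood at 13.30, 13.40 and 13.29 log2 in the iCM arrays, against 9.64, 9.47 and 9.03 in the GFP- arrays (15.5-fold, 3.95 ± 0.27 log2, adjusted p = 2.5e-10). Tnni3, the cardiac inhibitory troponin, stood at 12.28, 12.47 and 12.35 log2 in the iCM arrays, against 8.47, 8.28 and 9.02 in the GFP- arrays, and Lmod2, which lengthens thin filaments, at 10.77, 10.97 and 10.73 against 7.25, 6.42 and 6.88. Tnnt2, cardiac troponin T, stood at 13.76, 13.78 and 13.83 log2 in the iCM arrays, against 12.28, 12.15 and 12.46 in the GFP- arrays, a rise of 1.5 ± 0.16 log2 (adjusted p = 2.68e-07). GFP- cells thus already held a Tnnt2 signal above that of cardiac fibroblasts (10.89 ± 0.52, SD, n = 3), and the iCM arrays lie close to the array maxima, where a difference can be understated.

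Z-disc and costamere genes gave 21 rises and no fall among 23, with a median of 1.90 log2. Actn2, the alpha-actinin that anchors thin filaments, stood at 10.06, 10.12 and 9.78 log2 in the iCM arrays, against 6.88, 6.77 and 6.57 in the GFP- arrays (3.25 ± 0.12 log2, adjusted p = 3.95e-14), short of cardiomyocytes at 12.13 ± 0.15. Myoz2, which tethers calcineurin to the Z-disc, stood at 10.96, 11.21 and 10.92 log2 in the iCM arrays, against 6.94, 6.92 and 6.93 in the GFP- arrays (4.10 ± 0.10 log2). Csrp3, a LIM protein of the Z-disc, stood at 12.56, 12.67 and 12.66 against 8.86, 8.67 and 9.41, beside a cardiomyocyte mean of 12.5 ± 0.07. The structural genes differed among themselves in how near the iCM arrays came to cardiomyocytes, with Myl7, Csrp3 and Actc1 near them and Actn2 further below.

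**Figure D2:**
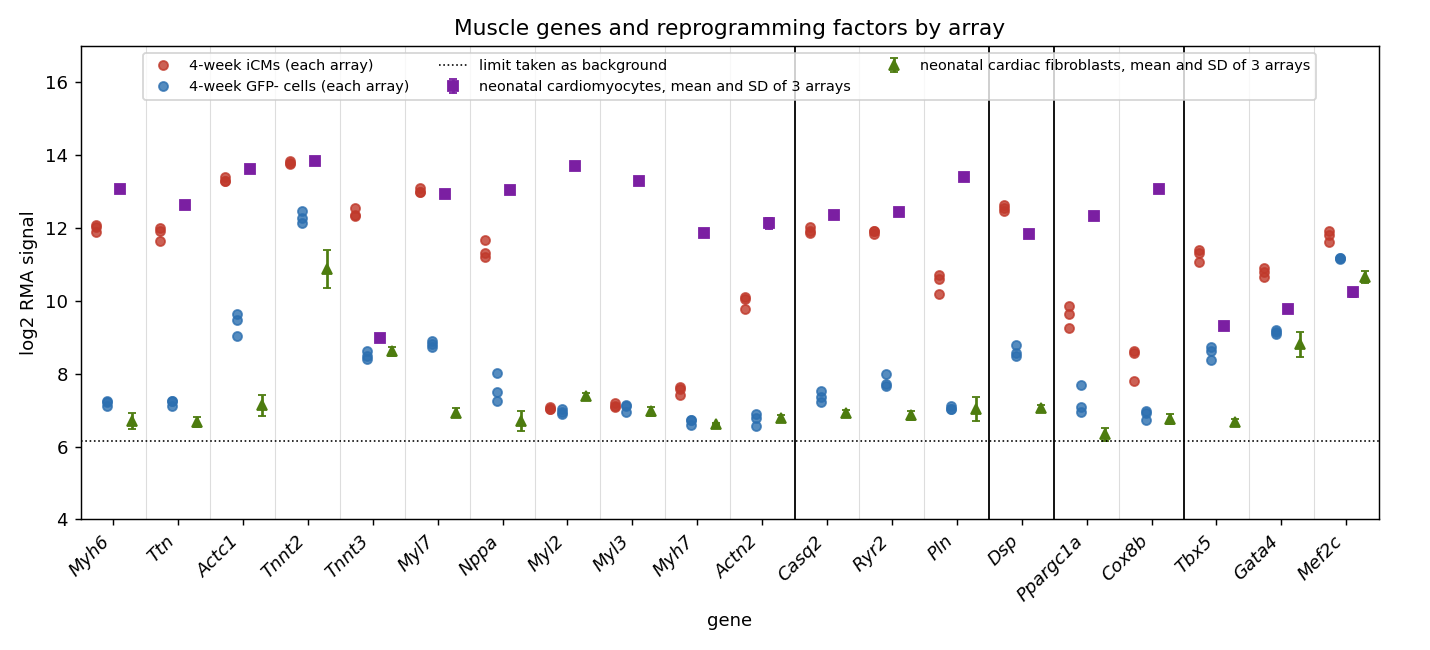
Log2 signal of 20 genes, with each of 3 arrays of 4-week iCMs (red) and of 4-week GFP- cells (blue), and the mean and SD of 3 arrays of neonatal cardiomyocytes (purple squares) and cardiac fibroblasts (green triangles). The red points stand above the blue ones for Myh6, Ttn, Actc1 and Casq2, while Myl2 and Myl3 stay near 7 log2 in both groups and near 13 to 14 log2 in cardiomyocytes.

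Promoter sequence was searched for motifs in the 250 bases before the start of the genes called and at least 10-fold apart by the fitted difference, on both strands, in the RefSeq table of GRCm38.p6. The 10-fold rises and falls were chosen by their values, so the counts describe them and carry no test. A MEF2 site was present in 9 of the 32 risers with a promoter in the table (28.1%, of 39 risers), in 0 of 29 fallers (of 37) and in 2.82% of the 15600 tested genes with a promoter. A CArG box, the element bound by serum response factor, was present in 5 of 32 risers (15.6%), 0 of 29 fallers and 1.46% of all. AGATAA, the GATA element, was in 5 risers (15.6%), 1 faller (3.45%) and 9.93% of all, and AGGTGT, the T-box core, in 6 risers (18.8%), 2 fallers (6.9%) and 12.7% of all. GAGGAAGT, a core of the macrophage factor PU.1, was in 0 of 32 risers, 3 fallers (10.3%) and 2.59% of all. Of these risers Dmd held both the MEF2 site and the CArG box, at places that share no bases. A missing motif says only that these letters are not in this window.
Windows around the match nearest the start are printed 5′ to 3′ in the direction of the gene, with the motif in capitals, because these 6 genes are among the muscle genes that carry the rise and each holds 1 match. A MEF2 site is capitalised for Ttn (chr2:76982674-76982743 on the minus strand), Casq2 (chr3:102086316-102086385 on the plus strand), Myoz2 (chr3:123034988-123035050 on the minus strand) and Pgam2 (chr11:5803837-5803906 on the minus strand), and a CArG box for Actc1 (chr2:114052883-114052952 on the minus strand) and Myl7 (chr11:5898804-5898873 on the minus strand).
Ttn: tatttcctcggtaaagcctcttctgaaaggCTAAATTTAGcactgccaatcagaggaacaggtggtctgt
Casq2: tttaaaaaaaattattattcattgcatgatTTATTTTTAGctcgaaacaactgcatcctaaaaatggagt
Myoz2: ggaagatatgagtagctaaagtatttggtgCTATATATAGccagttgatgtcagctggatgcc
Pgam2: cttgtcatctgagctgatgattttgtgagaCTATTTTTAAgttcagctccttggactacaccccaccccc
Actc1: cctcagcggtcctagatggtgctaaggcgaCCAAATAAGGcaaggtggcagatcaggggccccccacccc
Myl7: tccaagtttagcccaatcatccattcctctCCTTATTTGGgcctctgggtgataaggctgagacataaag

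Calcium handling genes were mostly higher in iCMs: 15 of 19 genes rose and 2 fell, with a median of 1.49 log2. Ryr2, the calcium release channel of the heart, stood at 11.91, 11.91 and 11.84 log2 in the iCM arrays, against 7.67, 7.71 and 8.01 in the GFP- arrays (17-fold, 4.09 ± 0.10 log2, adjusted p = 1.1e-15). Casq2, the calcium store's buffer, stood at 11.86, 12.03 and 11.93 log2 in the iCM arrays, against 7.38, 7.22 and 7.52 in the GFP- arrays (4.57 ± 0.28 log2, adjusted p = 5.96e-11). Jph1, a junctophilin that holds the store against the surface membrane, stood at 11.49, 11.49 and 11.16 against 6.73, 6.92 and 7.24, and its iCM arrays lay above the cardiomyocyte mean of 10.32 ± 0.12. A second, dimmer probe set of Jph1 differed by 1.88 log2, against 4.41 for the one used. Pln, phospholamban, the brake of the calcium pump, stood at 10.61, 10.72 and 10.20 log2 in the iCM arrays, against 7.03, 7.11 and 7.03 in the GFP- arrays (3.45 ± 0.25 log2), far under cardiomyocytes (13.39 ± 0.03). Sln, the atrial counterpart of Pln, stood at 10.97, 10.95 and 10.58 against 7.48, 7.32 and 7.83. Fkbp1b, a stabiliser of Ryr2, fell by 1.39 log2 and Asph by 0.58.

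Among ion channels of the surface membrane, 8 of 23 sodium, potassium and pacemaker channel genes rose, 2 fell, and the median was 0.18 log2. Over all genes 17.2% were called higher and 17.1% lower, so the share of falls here was under that of all genes. Kcnj5 and Kcna4, both potassium channel genes, rose, Kcnj5 with 9.16, 9.57 and 9.20 log2 in the iCM arrays, against 6.42, 6.95 and 7.03 in the GFP- arrays. Kcna4 was at least 2.68-fold higher because its GFP- arrays, at 5.59, 5.82 and 5.66, lay under the background limit. Hcn4, the pacemaker channel of the sinus node, rose by 0.64 log2. Kcnj2, the channel that sets the resting potential of ventricular cells, stood at 6.85, 6.75 and 6.80 log2 in the iCM arrays, against 8.71, 8.61 and 8.30 in the GFP- arrays, a fall (-1.74 ± 0.13 log2, adjusted p = 1.06e-09). Cacna1d fell too (-1.87 ± 0.12 log2).

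Intercalated disc genes, which join heart cells end to end, gave 13 rises and no fall among 14, with a median of 1.29 log2. Dsp, desmoplakin, stood at 12.48, 12.54 and 12.63 log2 in the iCM arrays, against 8.79, 8.5 and 8.58 in the GFP- arrays (15.2-fold, 3.93 ± 0.10 log2, adjusted p = 1.68e-15), above cardiomyocytes at 11.84 ± 0.07. Jup and Pkp2, plakoglobin and plakophilin of the desmosome, rose by 2.30 and 2.30 log2. Ctnna3, the alpha-catenin of heart, was at least 4.09-fold higher. Gja1, connexin 43, rose by 1.29 log2.

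Energy genes of heart muscle rose in part. Fatty acid oxidation gave 13 rises and 2 falls among 20 (median 0.53 log2), the respiratory chain 15 rises and no fall among 18 (median 0.45), and muscle glycogen, glycolysis and creatine kinase 12 rises and no fall among 17 (median 0.70). Ppargc1a, the coactivator of mitochondrial genes, stood at 9.64, 9.85 and 9.24 log2 in the iCM arrays, against 7.09, 6.96 and 7.70 in the GFP- arrays (2.33 ± 0.21 log2, adjusted p = 1.54e-08), and its cardiomyocyte mean was 12.33 ± 0.09. A second, dimmer probe set of Ppargc1a differed by 1.65 log2. Cox8b, the muscle isoform of a cytochrome oxidase subunit, stood at 8.62, 8.56 and 7.82 log2 in the iCM arrays, against 6.99, 6.74 and 6.93 in the GFP- arrays, beside 13.06 ± 0.07 in cardiomyocytes. Pdk4, which spares glucose by switching off pyruvate dehydrogenase, stood at 10.37, 10.55 and 10.31 against 7.58, 6.92 and 7.36 (3.12 ± 0.14 log2). The groups did not overlap for any of these, and for Cox8b the rise left the iCM arrays at least 4 log2 below cardiomyocytes. Pgam2 stood at 12.43, 12.63 and 12.38 log2 in the iCM arrays, against 8.37, 8.13 and 8.34 in the GFP- arrays (18.4-fold, adjusted p = 5.84e-15), beside a cardiomyocyte mean of 12.61 ± 0.09. Ppp1r3a was at least 6.06-fold higher, and Ckm and Ckmt2, the creatine kinases of muscle, did not pass the test (0.05 log2 for Ckm, while Ckmt2 was below background in both groups). The 2 fatty acid genes that fell were Cd36, a fatty acid transporter also found on macrophages (-3.57 ± 0.17 log2), and Lpl, lipoprotein lipase (-1.78 log2).

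Chamber genes moved unevenly. Among atrial-enriched genes 6 of 10 rose and 1 fell, with a median of 1.60 log2, and of 6 ventricular-enriched genes 3 rose and none fell, with a median of 0.45. The difference between these 2 lists was not tested. Nppa, the atrial natriuretic peptide, stood at 11.21, 11.30 and 11.67 log2 in the iCM arrays, against 7.49, 7.25 and 8.03 in the GFP- arrays (14-fold, 3.81 ± 0.21 log2, adjusted p = 1.31e-11). Myl4, the atrial essential light chain, stood at 13.40, 13.55 and 13.51 against 10.40, 10.13 and 10.25 and exceeded the cardiomyocyte mean of 13.01 ± 0.07. Nppb, the natriuretic peptide of loaded ventricles, rose by 2.33 ± 0.16 log2. Myl2, the ventricular regulatory light chain, stood at 7.04, 7.03 and 7.09 log2 in the iCM arrays, against 7.04, 6.91 and 6.95 in the GFP- arrays (0.09 ± 0.08 log2, adjusted p = 0.466), and the groups overlapped. Myl3, the ventricular essential light chain, stood at 7.19, 7.10 and 7.12 log2 in the iCM arrays, against 7.11, 7.13 and 6.96 in the GFP- arrays (0.07 ± 0.10 log2, adjusted p = 0.645). Neither group came near the cardiomyocyte means, 13.70 ± 0.02 for Myl2 and 13.30 ± 0.08 for Myl3. Myh7, the slow heavy chain, stood at 7.59, 7.63 and 7.41 log2 in the iCM arrays, against 6.60, 6.72 and 6.73 in the GFP- arrays (0.86 ± 0.08 log2) and cardiomyocytes at 11.86 ± 0.06. Hey2, a ventricular repressor, was at least 1.21-fold higher.

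Among 22 skeletal muscle genes 8 rose and none fell, with a median of 0.21 log2. Tnnt3, the fast skeletal troponin T, stood at 12.37, 12.34 and 12.56 log2 in the iCM arrays, against 8.48, 8.42 and 8.63 in the GFP- arrays (15.1-fold, 3.91 ± 0.12 log2, adjusted p = 4.54e-15). Its iCM arrays lay above both cardiomyocytes (8.98 ± 0.11) and fibroblasts (8.62 ± 0.12). Myl1, the fast light chain, was at least 4.54-fold higher, while the master regulators of skeletal muscle Myod1, Myog, Myf5 and Myf6 did not pass the test (differences of -0.04 to 0.13 log2).

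Macrophage genes were lower in iCMs. Of 27 macrophage and leukocyte markers 25 fell and none rose, with a median of -2.80 log2 beside 0.05 over all genes and the 17.1% of all genes called lower. Csf1r, the receptor that macrophages need to live, stood at 8.23, 8.19 and 8.09 log2 in the iCM arrays, against 11.30, 11.33 and 11.33 in the GFP- arrays (8.9-fold lower, -3.15 ± 0.13 log2, adjusted p = 1.94e-13). Laptm5, a lysosomal protein of leukocytes, stood at 9.34, 9.29 and 9.21 log2 in the iCM arrays, against 12.47, 12.40 and 12.38 in the GFP- arrays, and Itgam, the integrin CD11b, at 7.69, 7.5 and 7.72 against 10.61, 10.63 and 10.92. The iCM arrays lay below all GFP- arrays for each of these. The mean over the list was 8.74 to 8.83 log2 in iCM arrays, against 11.19 to 11.24 in GFP- arrays, with 6.63 to 6.79 in cardiomyocytes and 10.94 to 11.16 in cardiac fibroblasts. Only Ccr2 of the 27 was below background in both 4-week groups, and Cd163 and Lyve1 did not pass the test. The part of macrophages in this and the other falls was not tested.

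The GFP- cells are labelled as fibroblasts, and their macrophage list mean lay just above that of the neonatal fibroblast arrays while several matrix genes lay below. Postn averaged 8.55 ± 0.38 log2 in GFP- cells against 11.51 ± 0.12 in cardiac fibroblasts, and Dpt 7.26 ± 0.37 against 11.86 ± 0.23. The cardiomyocyte arrays held both as well (12.16 ± 0.13 for Postn and 11.79 ± 0.18 for Dpt), so neither sets the neonatal fibroblasts above the cardiomyocytes by much. Col1a1 averaged 8.59 ± 0.08 log2 in GFP- cells and 10.46 ± 0.22 in fibroblasts. Vim, an intermediate filament of mesenchymal cells, averaged 12.53 ± 0.04 log2 in GFP- cells and 12.55 ± 0.07 in fibroblasts. Adgre1, the F4/80 antigen, stood at 12.29, 12.30 and 12.91 log2 in GFP- arrays and 11.94 ± 0.15 in fibroblasts.

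Receptors and signals of innate immunity fell with the macrophage markers. All 11 measured genes of Toll-like receptors, their adaptor Myd88 and coreceptor Cd14 fell, with a median of -1.91 log2. Tlr13, which senses bacterial ribosomal RNA in the mouse, stood at 8.17, 8.22 and 7.5 log2 in the iCM arrays, against 11.78, 11.77 and 11.78 in the GFP- arrays (14-fold lower, -3.81 ± 0.19 log2, adjusted p = 4.11e-12). Tlr7 and Tlr8, receptors of single-stranded RNA, fell by 3.69 and 3.70 log2. Of 24 inflammatory cytokine, chemokine and acute phase genes 21 fell and none rose (median -1.86 log2). Ccl3, a chemokine of macrophages, stood at 8.84, 9.07 and 8.66 log2 in the iCM arrays, against 12.23, 12.36 and 12.07 in the GFP- arrays (-3.36 ± 0.11 log2, adjusted p = 9.12e-15), and Ccl12 at 7.48, 7.54 and 7.64 against 10.86, 10.90 and 11.28. Il1b (-2.38 log2) and Tnf (-2.33 log2) fell as well. Interferon response genes gave 15 falls and 1 rise, of Usp18 (0.79 log2), among 18 (median -0.67 log2). Ifit3, an interferon-induced RNA binder, stood at 8.28, 8.14 and 8.95 log2 in the iCM arrays, against 9.99, 9.88 and 11.06 in the GFP- arrays, with replicate 3 the highest in both groups. MHC class II genes did not follow: 1 of 7 rose, H2-Eb1, and 1 fell, H2-Aa, and H2-Aa was below background in both groups. The call of H2-Eb1 was lost without iCM replicate 1 or GFP- replicate 1 or 3 (adjusted p = 0.15, 0.171 and 0.118 in limma), and that of H2-Aa without GFP- replicate 1 (0.0571).

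**Figure D3:**
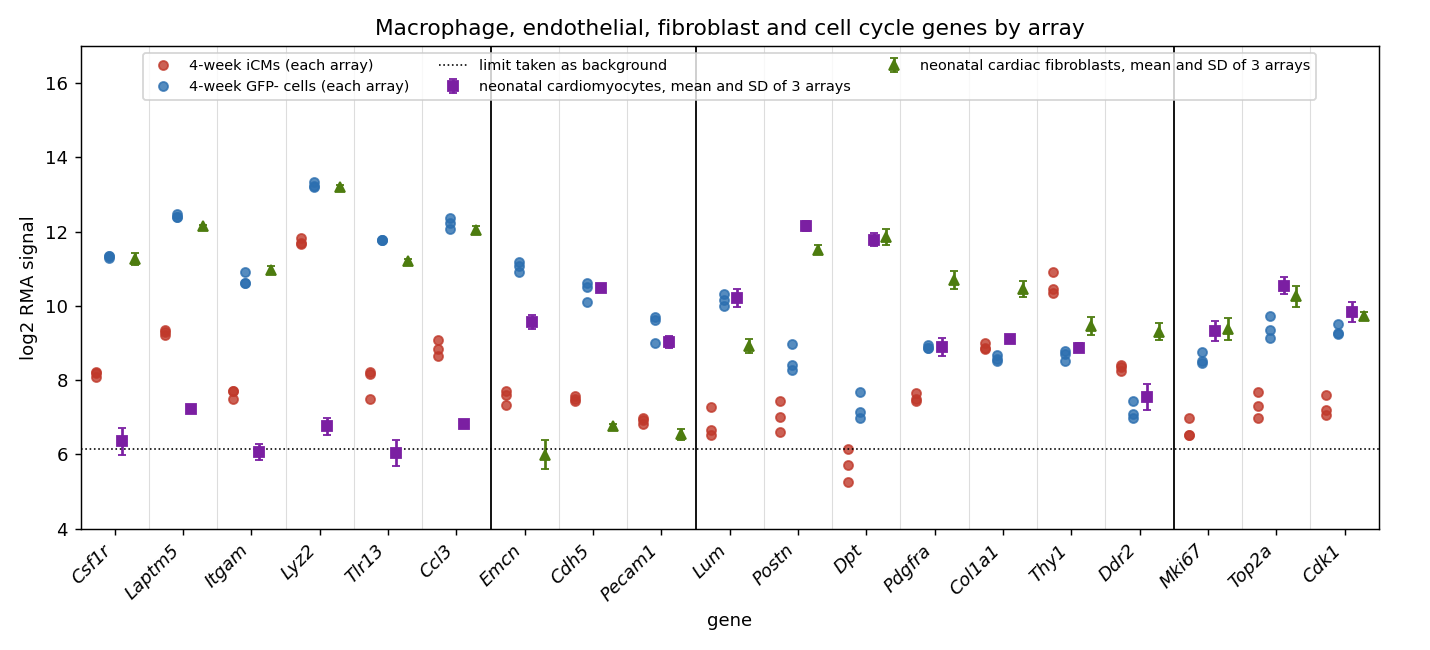
Log2 signal of 19 genes of other cell types, with each of 3 arrays of 4-week iCMs (red) and of GFP- cells (blue), and the mean and SD of 3 arrays of neonatal cardiomyocytes (purple squares) and cardiac fibroblasts (green triangles). The blue points lie above the red ones for the macrophage genes from Csf1r to Ccl3 and for Emcn, Cdh5 and Pecam1, and below them for Thy1 and Ddr2.

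Of 17 endothelial markers 9 fell and 1 rose (2 with array weights), with a median of -0.29 log2. Of all genes 17.1% were called lower and 17.2% higher. Emcn, a sialomucin of capillaries and veins, stood at 7.33, 7.71 and 7.60 log2 in the iCM arrays, against 11.19, 11.08 and 10.90 in the GFP- arrays (11.4-fold lower, -3.52 ± 0.16 log2, adjusted p = 5.83e-13). Cdh5, the cadherin of endothelial junctions, stood at 7.5, 7.44 and 7.59 log2 in the iCM arrays, against 10.61, 10.52 and 10.11 in the GFP- arrays (-2.91 ± 0.12 log2, adjusted p = 1.38e-13), and Pecam1 at 6.99, 6.82 and 6.92 against 9.70, 9.61 and 9.0. For all 3 the GFP- arrays lay above the cardiac fibroblast means of 5.99 ± 0.39, 6.77 ± 0.06 and 6.54 ± 0.14. The cardiomyocyte arrays also held these transcripts, with means of 9.56 ± 0.18, 10.48 ± 0.08 and 9.03 ± 0.17. Kdr, the main VEGF receptor, did not pass the test (0.01 ± 0.14 log2), and Flt1, the other, rose (1.02 ± 0.16 log2, adjusted p = 4e-05). Several of these genes are also known from macrophages or other blood cells, Pecam1 among them.

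Collagens gave 3 rises and 2 falls (4 with array weights) among 19, shares near or under the 17.2% and 17.1% of all genes called higher and lower (median -0.04 log2). Col1a1 stood at 8.88, 8.83 and 8.99 log2 in the iCM arrays, against 8.68, 8.56 and 8.52 in the GFP- arrays, not called (0.31 ± 0.12 log2, adjusted p = 0.0527). That call changed with the scaling: Col1a1 was called higher under quantile (0.40 log2, adjusted p = 0.00586) and cyclic loess normalization (0.35, adjusted p = 0.0132), and also with array weights, an intensity trend, only the compared groups or dim genes left out. Col12a1 rose by 1.89 ± 0.15 log2 and Col3a1 fell by 0.39. Other matrix proteins gave 15 falls and 3 rises among 26 (median -0.53 log2). Lum, lumican, stood at 6.67, 6.53 and 7.27 log2 in the iCM arrays, against 10.16, 10.33 and 9.999 in the GFP- arrays (10.1-fold lower, -3.34 ± 0.17 log2, adjusted p = 3.42e-12), and Postn, periostin, at 6.99, 7.43 and 6.61 against 8.98, 8.40 and 8.27. Dpt, dermatopontin, was at least 2.15-fold lower in iCMs. Proteases and inhibitors gave 12 falls and 1 rise (2 without GFP- replicate 1) among 19 (median -0.69 log2), led by Mmp13 (-2.27 ± 0.19 log2), Plau (-2.24 ± 0.21 log2) and the macrophage elastase Mmp12 (-2.18 ± 0.10 log2). The macrophage list mean fell beside these proteases, and its part was not tested.

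Of 19 genes of fibroblast identity 2 rose and 4 fell (7 with array weights), shares near the 17.2% and 17.1% of all genes, and the median was 0.0 log2. Thy1, a fibroblast surface antigen, stood at 10.44, 10.34 and 10.92 log2 in the iCM arrays, against 8.79, 8.71 and 8.53 in the GFP- arrays (1.89 ± 0.21 log2, adjusted p = 4.28e-07), and Ddr2, a collagen receptor, at 8.34, 8.41 and 8.25 against 7.45, 7.10 and 6.99. Pdgfra, the receptor of platelet-derived growth factor, went the other way with 7.64, 7.48 and 7.43 log2 in the iCM arrays, against 8.96, 8.88 and 8.86 in the GFP- arrays (-1.38 ± 0.12 log2, adjusted p = 1.76e-08). Both rises put iCM arrays above GFP- arrays with no overlap, and the fall put them below with none. Smooth muscle and myofibroblast genes gave 11 rises and no fall among 14 (median 0.42 log2). Acta2, smooth muscle actin, stood at 12.48, 12.56 and 12.49 log2 in the iCM arrays, against 10.60, 10.13 and 10.07 in the GFP- arrays (2.25 ± 0.23 log2), Myl9 rose by 3.13 ± 0.21 log2 and Tagln by 1.68 ± 0.24.

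Genes of DNA replication and mitosis were lower in iCMs: 24 of 27 fell and none rose, with a median of -1.02 log2. Mki67, a marker of cycling cells, stood at 6.51, 6.54 and 6.97 log2 in the iCM arrays, against 8.47, 8.52 and 8.75 in the GFP- arrays (3.75-fold lower, -1.91 ± 0.16 log2, adjusted p = 4.76e-09). Top2a, which untangles DNA, stood at 6.98, 7.31 and 7.67 against 9.35, 9.14 and 9.74, and Cdk1, the mitotic kinase, at 7.06, 7.20 and 7.59 against 9.26, 9.24 and 9.51. Each gene separated the groups without overlap, and each stood lower in GFP- cells than in the neonatal cells, whose means were 9.32 ± 0.26 and 9.37 ± 0.29 for Mki67. Inhibitors of the cycle and p53 targets gave 6 rises and 4 falls among 15, beside 17.2% and 17.1% of all genes. Phlda3 rose by 0.85 ± 0.14 log2 and Cdkn2c fell by 1.19. Immediate early genes gave 9 falls and 1 rise among 17 (median -0.40 log2), Egr2 and Jun among the falls (-2.20 and -1.34 log2). The rise was Nr4a1, whose call was lost without iCM replicate 1 or 2 or GFP- replicate 2 or 3. The count of rises was also 0 under cyclic loess normalization, with array weights or with only the compared groups.

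TGF-beta and BMP signalling gave 8 rises and 8 falls among 25 (median 0.09 log2), beside 17.2% and 17.1% of all genes. Tgfb3 stood at 10.30, 10.30 and 10.27 log2 in the iCM arrays, against 7.74, 7.62 and 7.20 in the GFP- arrays (2.77 ± 0.28 log2, adjusted p = 9.39e-08) and Tgfb2 at 10.71, 10.70 and 10.61 against 8.76, 8.58 and 8.15. Tgfb1 fell by 1.68 log2, Bmp4 by 1.83 and Id2, a target of BMP signalling, by 2.22. The isoforms Tgfb2 and Tgfb3 thus stood higher in iCMs and Tgfb1 lower. In Wnt signalling 8 of 22 rose and 5 fell, beside the same shares of all genes. Lef1, a nuclear effector, rose by 1.51 ± 0.12 log2, and Frzb and Dkk2, secreted modulators, fell by 2.04 and 1.37. Notch signalling gave 3 rises and 4 falls among 14, beside 17.2% and 17.1% of all genes. Rbpj, the pathway's DNA-binding partner, fell (-1.54 ± 0.08 log2), while Hes1, a target, rose (0.75 ± 0.13 log2, adjusted p = 9.53e-05). A second, dimmer probe set of Rbpj differed by -0.64 log2. The insulin-like growth factor axis gave 5 rises and 4 falls among 11, beside 17.2% and 17.1% of all genes. Without iCM replicate 3 or without GFP- replicate 2 it gave 2 falls, a share near the 17.1%. Igfbp5, a binding protein, stood at 11.46, 11.63 and 11.75 log2 in the iCM arrays, against 7.97, 8.02 and 7.92 in the GFP- arrays (12.5-fold, adjusted p = 3.37e-14), while Igf1 stood at 8.97, 9.20 and 8.98 against 11.88, 11.85 and 11.79, a fall of 6.9-fold.

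Epicardial and mesothelial genes gave 9 rises and no fall among 15 (median 0.47 log2). Upk1b, a uroplakin of mesothelium, stood at 11.70, 11.93 and 12.12 log2 in the iCM arrays, against 9.69, 9.17 and 9.03 in the GFP- arrays (2.62 ± 0.25 log2, adjusted p = 5.39e-08), and Msln, mesothelin, at 10.02, 10.11 and 10.36 against 8.15, 8.16 and 7.96. Tbx18, a T-box factor of epicardium, rose by 1.90 ± 0.15 log2. Msln in iCM arrays lay above both cardiomyocytes (7.14 ± 0.10) and fibroblasts (7.62 ± 0.24). Mcpt4, a mast cell chymase, rose to 10.17, 10.54 and 10.19 log2 in iCM arrays, against 7.0, 7.24 and 7.48 in GFP- arrays, and no other of the 11 lymphocyte, mast cell and neutrophil genes was called (2 were higher without GFP- replicate 3 and 1 was lower without GFP- replicate 1). Of other mast cell genes, Kit differed by -0.04 log2 and Cpa3 was below background in both groups. Of adipocyte genes 3 of 8 fell, beside 17.1% of all genes: Fabp4 (-3.05 ± 0.11 log2), Cebpa (-1.62) and Pparg (-0.75), each also known from macrophages. Cholesterol synthesis gave 6 rises and 2 falls among 12 (median 0.28 log2), with the largest rise in Cyp51 (1.03 ± 0.12 log2). The unfolded protein response gave 4 rises and 2 falls among 14 (1 fall without iCM replicate 1, median -0.02 log2). Its largest rise was that of Asns (0.80 ± 0.21 log2). Both stand beside 17.2% of all genes called higher and 17.1% lower, and their shares of falls were near the latter.

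Calls in lists of other lineages depended on single arrays or settings. Of 10 pluripotency genes 1 rose, Tdgf1, which was lost without GFP- replicate 2 (adjusted p = 0.0785). In mesoderm and cardiac progenitor genes Eomes rose, a call lost without iCM replicate 2 or 3 or GFP- replicate 1 or 3 (adjusted p up to 0.183). The count of rises there was 4 of 8 with array weights and 0 under quantile or cyclic loess normalization, with only the compared groups or with dim genes left out. Mixl1 of the same list fell, a call lost without GFP- replicate 2 (adjusted p = 0.0608). Of 5 Schwann and glial genes Gfra3 rose, a call lost without iCM replicate 1 (adjusted p = 0.07), and 2 rose with array weights. In limma 0 of 3 erythroid and 0 of 7 bone and cartilage genes were called (of the 7, 1 without iCM replicate 2 or GFP- replicate 2 and 2 with array weights), with 0 and 1 at an unadjusted p under 0.05. Of 10 reference genes 1 rose and 3 fell, of which B2m was lost without iCM replicate 1 (adjusted p = 0.055), and Gusb, a lysosomal enzyme often used as a reference, stood at 9.06, 8.94 and 8.99 log2 in the iCM arrays, against 11.07, 11.12 and 11.05 in the GFP- arrays (4.24-fold lower, adjusted p = 1.18e-13).

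**Figure D4:**
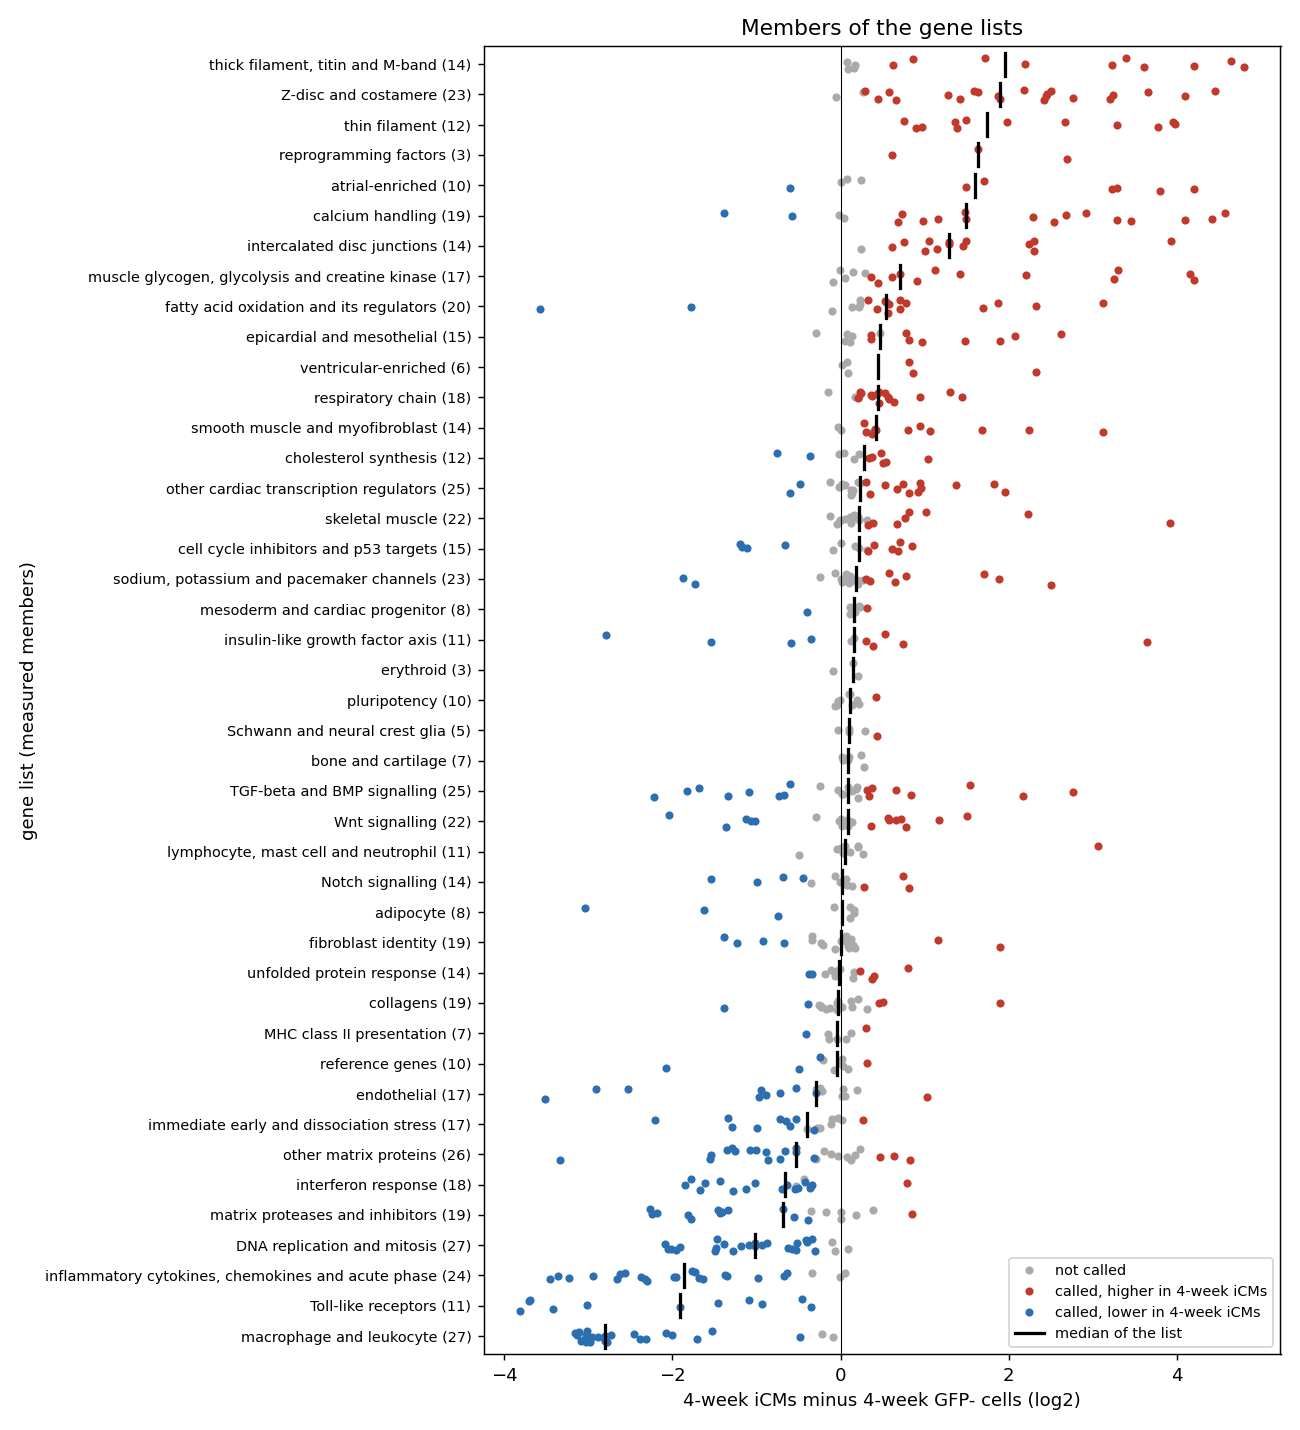
Each row is a gene list with its number of measured members, and each point is a member placed by its 4-week iCM minus GFP- difference (log2), red where called higher, blue where called lower and grey where not called. The black bar is the list's median. Contractile lists lie at the top with medians of 1.74 to 1.96, and macrophage and Toll-like receptor lists at the bottom.

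MicroRNA genes on these arrays are read through probes for the hairpin or its host transcript, not through the mature form. Of 291 microRNA genes tested 23 were higher and 17 lower, shares under the 17.2% and 17.1% of all genes. Of the 291, 141 were under the background limit in both groups. The pair below was chosen after its values were seen, for its place in the 2 sides of the comparison. Mir208a lies within Myh6 on chromosome 14 by RefSeq coordinates, and stood at 6.65, 6.95 and 6.61 log2 in iCM arrays, against 5.08, 5.11 and 4.95 in GFP- arrays. It was at least 1.495-fold higher (adjusted p = 2.01e-09 in limma), and its GFP- arrays were below background. Where its probes read Myh6 as the host transcript, the reservation on the sort given for Myh6 holds here too. Mir142, known from blood cells, stood at 7.04, 6.38 and 6.63 log2 in the iCM arrays, against 7.75, 7.97 and 8.54 in the GFP- arrays (-1.41 ± 0.20 log2, adjusted p = 1.27e-05). The mature sequences from RefSeq (GRCm38.p6) are given with the seed, bases 2 to 8, in capitals.
The hairpins give mmu-miR-208a-3p at chr14:54949072-54949093 on the minus strand and mmu-miR-142a-3p at chr11:87756903-87756925 on the plus strand.
mmu-miR-208a-3p: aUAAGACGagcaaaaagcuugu
mmu-miR-142a-3p: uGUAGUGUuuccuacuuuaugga

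The difference of 4-week iCMs and GFP- cells was set beside that of neonatal cardiomyocytes and fibroblasts. The neonatal arrays do not enter the iCM minus GFP- difference itself, but they share in the estimate of the spread and in the choice of probe set. Folds here are fitted values. Of the 185 genes called and at least 4-fold higher in iCMs, 81 (43.8%) were at least 4-fold higher in cardiomyocytes than in fibroblasts, beside 298 (1.5%) of all 19912. Of the 332 called and at least 4-fold lower, 226 (68.1%) were at least 4-fold higher in fibroblasts than in cardiomyocytes, beside 448 (2.25%) of all. No test was made of these shares. The fibroblast arrays also held macrophage transcripts, with a macrophage list mean of 10.94 to 11.16 log2, against 6.63 to 6.79 in cardiomyocytes. Tlr13, Csf1r and Laptm5 are among the 226, which are thus not fibroblast genes alone. Of the other 4-fold rises, 103 differed less than 4-fold between the neonatal cells and 1 was at least 4-fold higher in fibroblasts. A set of 69 genes, chosen after the values were seen, had a fitted rise of at least 4-fold over GFP- cells, stood at least 2-fold higher in iCMs than in cardiomyocytes, and was less than 2-fold higher in cardiomyocytes than in fibroblasts. For 6 of the 69 the lower bound is under 4-fold, as GFP- cells were below background. Among them were Tnnt3, Igfbp5, Tgfb2, Tgfb3, Upk1b, Msln, Mcpt4, Abi3bp, Pvalb and Nid2. On the other side, 23 genes had a fitted fall of at least 4-fold and a fitted level at least 4-fold higher in GFP- cells than in cardiac fibroblasts. For 4 of them, Vsig4, Cd209f, Slamf7 and Clec14a, iCMs and fibroblasts were below background and both lower bounds are under 4-fold. Of these, Emcn, Cdh5, Pecam1, Myct1, Clec14a and Bmx are known from endothelium and Vsig4, Cd209f and Itgax from macrophages and dendritic cells. Cd36 averaged 11.89 ± 0.05 log2 in GFP- cells, against 7.23 ± 0.38 in fibroblasts and 12.21 ± 0.08 in cardiomyocytes.

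**Figure D5:**
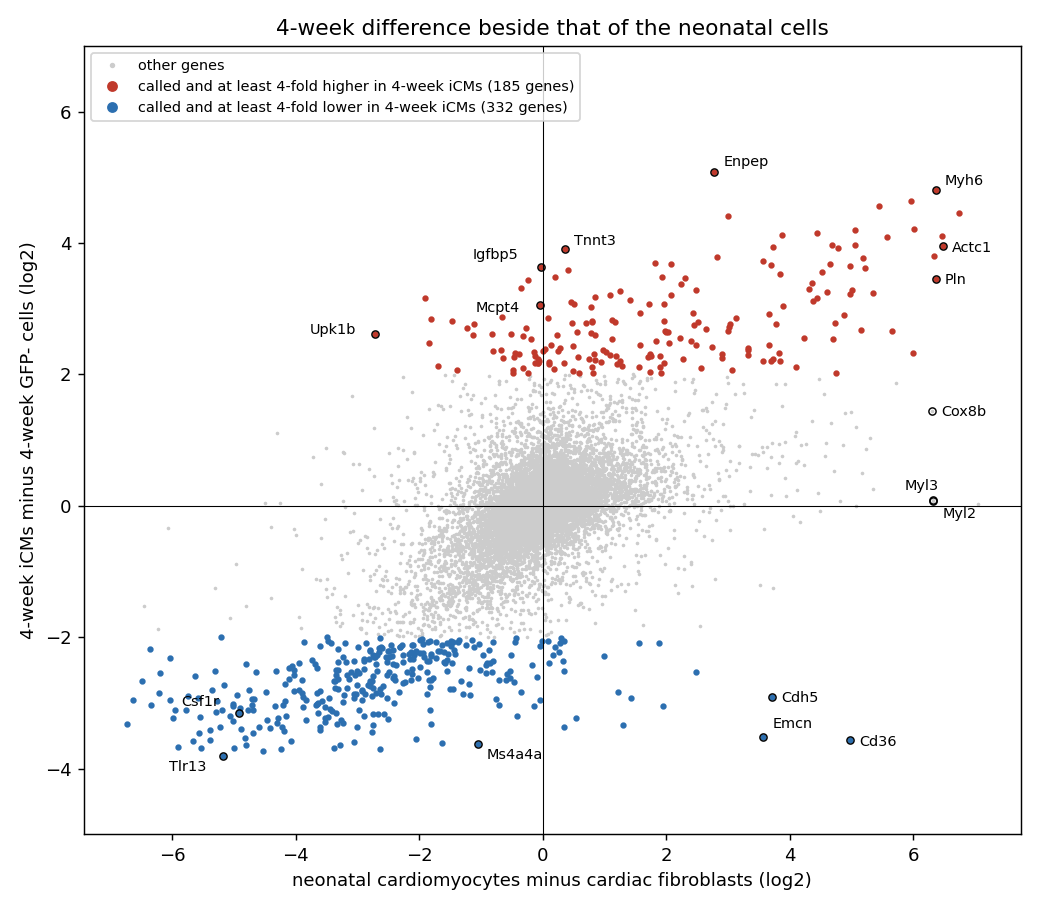
Each point is a gene, with neonatal cardiomyocytes minus cardiac fibroblasts (log2) on the horizontal axis and 4-week iCMs minus GFP- cells (log2) on the vertical axis. Red points are the 185 genes called and at least 4-fold higher and blue points the 332 at least 4-fold lower in iCMs. Myl2 and Myl3 lie on the right at 0, and Tnnt3 and Igfbp5 at the top near 0 on the horizontal axis.

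The 4-week difference was compared with that at 2 weeks, from separate arrays, by the interaction in limma. In 370 genes (1.86%) the iCM minus GFP- difference was more positive at 4 weeks and in 415 (2.08%) more negative. The counts moved with single arrays, to 239 more positive without GFP- 2-week replicate 1, and to 260 and 274 more negative without GFP- 4-week replicate 1 and without iCM 2-week replicate 3. They were 2240 and 1951 with array weights, and 633 were more negative under cyclic loess normalization. The difference of Pln was 3.45 log2 at 4 weeks and 1.69 at 2 weeks (1.77 ± 0.35 log2, SE, adjusted p = 0.00532), and that of Cox7a1, the muscle isoform of a cytochrome oxidase subunit, 1.30 and -0.08 (1.37 ± 0.19, adjusted p = 0.000334). The difference of Nebl, a Z-disc protein of the heart, was 2.67 log2 at 4 weeks and 0.46 at 2 weeks (2.21 ± 0.15, adjusted p = 1.5e-07), while a second, dimmer probe set of Nebl differed by 0.56 log2 at 4 weeks. The differences of Actn2 and Tnnt3 were larger at 4 weeks by 1.18 and 1.07 log2. Lcn2, lipocalin 2, differed by -2.56 log2 at 4 weeks and -0.12 at 2 weeks (-2.44 ± 0.26, adjusted p = 2.48e-05). Vsig4, a complement receptor of resident macrophages, was above background in 4-week GFP- cells alone of the 4 groups, where it was at least 2.6-fold higher than in iCMs. The change of the difference was -1.46 log2 for Pecam1 and -2.09 for Lum, whose 2-week iCM mean was below background. Flt1 stood 1.02 log2 higher in iCMs at 4 weeks and 2.26 at 2 weeks. Bex1, a brain-expressed X-linked gene, stood at 8.30, 8.98 and 9.44 log2 in the iCM arrays, against 8.80, 8.69 and 9.12 in the GFP- arrays, with no call at 4 weeks (0.03 ± 0.19 log2, though 0.43 and adjusted p = 0.0476 with array weights), and its difference at 2 weeks was 2.19 log2 (-2.16 ± 0.27, adjusted p = 0.000168). In the replication list the change was positive and called for 10 of 27 genes and negative for none. Bub1b, a kinase of the spindle checkpoint, differed by -0.88 log2 at 4 weeks and -2.06 at 2 weeks, so that its fall in iCMs was smaller at 4 weeks. The mean over the replication list was 7.87 to 7.95 log2 in 2-week iCM arrays and 7.3 to 7.57 in 4-week ones. In GFP- arrays it was 9.41 to 9.61 and 8.31 to 8.52, so it stood lower at 4 weeks in both groups.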

How the data were processed

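Expression was measured in 6 groups of 3 arrays, of which the 4-week iCM and 4-week GFP- arrays make the comparison. RNA was isolated with PicoPure and labelled with MessageAmp II-biotin, per the labels' protocols. The deposited log2 values come from RMA, per the submitters' processing notes. The version of RMA is not given in the sources used here. Of 28682 probe sets in the table, the platform annotation gave 1 gene for 21755, several for 1592 and none for 5335. Probe sets naming 1 gene were kept, and the one with the highest mean over all 18 arrays stood for its gene, which gave 19912 genes.

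limma 3.58.1 under R 4.3.3 was run on every gene over the whole set of 18 arrays, with group alone in the design, and 2-sided p-values were adjusted by Benjamini-Hochberg over all genes. Differences carry standard errors (SE), group means standard deviations (SD, n = 3). P-values measure only the spread between these arrays, which may be technical and whose number limits precision. No arrays were identical. The labels do not say that array numbers pair the samples, and the arrays cannot settle it. Deviations of same-numbered arrays correlated at -0.12, -0.10 and 0.12, and those of other pairs at -0.10 to 0.18.

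Named genes are the 12 largest rises and falls called without overlap of the arrays (predicted genes and olfactory receptors left out), from each list at most 4 members, those that differed most, the 4 largest rises and falls of the interaction with 2 weeks among genes also called at 4 weeks, and anchor genes such as Actc1, Bex1 and Postn. Other list members, microRNAs and genes set beside neonatal cells were chosen after their values were seen. The comparison, 43 gene lists (687 listed genes) and these rules were chosen with earlier results of these data known. The fit was tested on simulated data. Alternatives were other scalings, array weights, an intensity trend, fewer groups, a dim-gene filter, all probe sets, a replicate block, a 2-fold minimum and leaving out each array.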

Additional observations from a re-analysis of the deposited data

Results flagged for a closer look

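The iCM minus GFP- difference of 48 named genes changed between 2 and 4 weeks in limma's interaction test, on 4 groups of 3 arrays that share none between the time points. Values below are the log2 difference at 4 weeks less that at 2 weeks. The named genes include those chosen for a large change here, so their number says nothing of how often it occurs. More positive at 4 weeks were these genes of muscle: Nebl by 2.21, Pln by 1.77, Actn2 by 1.18 and Myom1 by 1.12. To these add Tnnt3 by 1.07, Myh7 by 0.52, Myl2 by 0.58 and Dsp by 0.58. Dsp averaged 12.57 log2 in 2-week and 12.55 in 4-week iCMs, against 9.22 and 8.62 in GFP- cells, so its iCM level did not rise. Myl2 averaged 6.83 and 7.05 log2 in iCMs, against 7.32 and 6.965 in GFP- cells. The change was also positive for these: Cox7a1 by 1.37, Cox8b by 1.17, Pgam2 by 0.79 and Esrrg by 0.82. To these add Lef1 by 0.79 and Gpr84 by 1.79. A positive change of a fitted difference, with at least 1 group below background at each time so that its size is uncertain, was found for 4 genes: Ppp1r3a by 2.25, Myl1 by 1.23, Rgs7 by 1.99 and Cd74 by 0.60. Of the 17 endothelial markers 5 had a negative change and 2 a positive one, and those named here with Bmx were negative: Emcn by -1.04, Cdh5 by -1.24, Pecam1 by -1.46 and Flt1 by -1.24. To these add Bmx by -2.13. These genes known from macrophages or their chemokines had a negative change: Ms4a4a by -2.0, Cd200r1 by -1.11, Laptm5 by -0.68 and Cybb by -0.87. To these add Ccl3 by -0.93 and Ccl6 by -0.84. Vsig4 and Cd209f were below background in 3 of the 4 groups, all but 4-week GFP- cells, so the size of their fitted negative change is uncertain: Vsig4 by -2.69 and Cd209f by -2.56. Negative changes of other genes were: Lcn2 by -2.44, Ifit3 by -1.59, Egr2 by -0.79 and Zfp36 by -0.62. To these add Gadd45a by -0.77, Tbx20 by -1.04, Hes1 by -0.65 and Fabp4 by -0.77. To these add Bex1 by -2.16. Matrix, receptor and ligand genes named here had a negative change: Tnc by -1.07, Mmp13 by -1.19, Pdgfra by -1.29 and Bmp4 by -1.56. To these add Frzb by -1.32, Dkk2 by -1.32 and Igf1 by -0.54. Lum, below background in 2-week iCMs, had a negative change too: Lum by -2.09. Of these, 37 kept their call whichever of the 12 arrays was left out. The call was lost without at least 1 array for Cd74 (adjusted p up to 0.0919), Dsp (adjusted p up to 0.0856), Egr2 (adjusted p up to 0.0576), Esrrg (adjusted p up to 0.0713), Gadd45a (adjusted p up to 0.0856), Hes1 (adjusted p up to 0.145). It was likewise lost for Igf1 (adjusted p up to 0.0956), Myom1 (adjusted p up to 0.107), Pgam2 (adjusted p up to 0.0612), Tnc (adjusted p up to 0.0562) and Zfp36 (adjusted p up to 0.088). Gpr84, a receptor of medium-chain fatty acids on myeloid cells, differed by -0.53 log2 at 4 weeks and -2.32 at 2 weeks. Its 4-week call was lost without iCM replicate 2 or GFP- replicate 3 (adjusted p = 0.0621 and 0.108). A second probe set of Nebl differed by 0.56 log2 at 4 weeks, against 2.67 for the one used. For Myl2, Cd74 and Bex1 the 4-week difference itself was not called. The cause of the changes was not tested.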

How the results depend on the processing

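The 4-week counts stayed within 1.5 times of 3421 higher and 3395 lower under the other scalings, array weights, trend, group choice, probe set rule and dim-gene filter, and fell to 683 and 1019 with a 2-fold minimum. Leaving out each array in turn gave 2888 to 3211 higher and 2968 to 3312 lower. The counts of the change from 2 to 4 weeks moved most with array weights, to 2240 more positive and 1951 more negative, and to 633 more negative under cyclic loess. Without single arrays they ran from 239 to 396 and from 260 to 608. With the replicate number as a block, which the labels do not say pairs the samples, the counts were 3503, 3460, 404 and 475, and no call of a named gene changed. Of 192 named genes 167 were called, 159 kept call and direction throughout the 14 alternatives that tested them and none reversed. Calls lost in some setting were of Eomes, Tdgf1, H2-Eb1, H2-Aa, Gfra3, B2m, Mixl1 and Gpr84. The causes were not tested. Of 86 list counts 17 moved by over 1.5 times in some setting, 10 of them with array weights. Signals near background cannot show a fall, and signals near the array maximum understate a rise.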
